A study of Mus musculus with 11 samples.

Results

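The red blood cell transcripts of the series are those of 4 genes, Alas2, Hba-a1, Hbb-b1 and Slc4a1, of 19057 named on the array, measured in the quadriceps of mice with and without a colon-26 (C26) tumor. They were chosen because earlier results of these data had shown them to vary between the mice, so their levels are given as a description, with no test. A probe was taken as a member if the array's annotation gave it the symbol of one of these genes, current or former, and 13 of the 45281 probes met this rule: 1 for Alas2, 1 for Hba-a1, 10 for the beta-globin Hbb-b1 and 1 for Slc4a1. No probe carried the name Hbb-b1 itself. Probes named Hbb-bs (6 probes) and Hbb-bt (4 probes) were taken to stand for it. The link of Hbb-bs rests on shared synonyms in the RefSeq gene table and that of Hbb-bt on the transcript record its probes were designed to. The names Hbb-bs and Hbb-bt are those of the C57BL/6J reference strain, and the mice here were CD2F1, so a probe is not assigned to a single copy. Hba-a1 likewise has a near-identical partner, Hba-a2, which had no probe of its own and whose RNA cannot be told apart from that of Hba-a1 here.

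Total RNA of 11 female CD2F1 mice (a cross of BALB/c and DBA/2), listed as 5 to 6 weeks old, was hybridised to Illumina MouseWG-6 v2.0 arrays, with 1 array per mouse. There were 3 mice with moderate cachexia (called Early in the labels), taken at about 10% loss of body weight after injection of 1000000 C26 cells, 4 mice with severe cachexia, taken at about 15% loss after the same injection, and 4 control mice without a tumor. C26 is a transplanted mouse colon carcinoma line, so each stage rests on a single tumor line, and stage goes together with time since injection. The signal table names each mouse by group and number (moderate 5, 9 and 12, severe 11, 13, 15 and 16, control 1 to 4), and these numbers are used here.

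The quadriceps samples were whole muscle. The methods name no step that cleared blood from the vessels, and how much blood each sample held was not measured. Skeletal muscle fiber markers (11 of 12 listed had a probe, all 11 tested) had summed signals of 219894 to 231215 in moderate, 213684 to 225624 in severe and 226641 to 238153 in control mice. From 18626 to 20006 probes per array had a detection p under 0.01, the measure of signal over background. Over the probes kept, controls correlated with each other at 0.986 to 0.992, and the array of severe mouse 11 correlated with the controls at 0.962 to 0.971.

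Red cells arise in bone marrow and, in mice, also in the spleen, from erythroblasts that load themselves with hemoglobin and lose their nucleus. A reticulocyte, the youngest red cell in blood, still holds RNA, most of it globin, and loses it within days, so that globin RNA in a tissue marks the young red cells in its blood. Hba-a1 encodes the alpha chain and the Hbb genes the beta chain of adult hemoglobin, Alas2 the erythroid enzyme that starts heme synthesis, and Slc4a1 the anion exchanger band 3 of the red cell membrane.

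The promoters of these genes are where the erythroid factors GATA1, which reads a GATA motif, and KLF1, which reads a CACCC motif, act together with general factors at TATA and CCAAT boxes. The 250 bases before the RefSeq start (GRCm38.p6) are shown to let these motifs be seen side by side. Capitals mark the GATA letters (AGATAA or AGATAG or TGATAA or TGATAG), the CACCC letters, the TATA letters (TATAAA or CATAAA) and the CCAAT letters on either strand, and motifs that touch or overlap run together. The windows are chrX:150547167-150547416 (plus strand) for Alas2, chr11:32283422-32283671 (plus strand) for Hba-a1, chr7:103827929-103828178 (minus strand) for Hbb-bs and chr7:103813924-103814173 (minus strand) for Hbb-bt.
Alas2: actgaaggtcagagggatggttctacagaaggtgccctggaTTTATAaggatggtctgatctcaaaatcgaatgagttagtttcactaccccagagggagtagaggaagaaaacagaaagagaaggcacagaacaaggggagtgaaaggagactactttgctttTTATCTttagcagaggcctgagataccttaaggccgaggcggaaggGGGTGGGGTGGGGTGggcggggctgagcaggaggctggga
Hba-a1: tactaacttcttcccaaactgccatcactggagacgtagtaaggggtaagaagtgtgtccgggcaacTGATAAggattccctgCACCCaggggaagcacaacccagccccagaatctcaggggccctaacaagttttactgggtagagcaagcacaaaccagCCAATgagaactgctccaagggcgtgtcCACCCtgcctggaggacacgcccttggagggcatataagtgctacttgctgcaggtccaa
Hbb-bs: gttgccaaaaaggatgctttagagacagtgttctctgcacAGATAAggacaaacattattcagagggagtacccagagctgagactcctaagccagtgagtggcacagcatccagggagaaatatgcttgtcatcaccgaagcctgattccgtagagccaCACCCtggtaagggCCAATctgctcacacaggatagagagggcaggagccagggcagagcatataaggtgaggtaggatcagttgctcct
Hbb-bt: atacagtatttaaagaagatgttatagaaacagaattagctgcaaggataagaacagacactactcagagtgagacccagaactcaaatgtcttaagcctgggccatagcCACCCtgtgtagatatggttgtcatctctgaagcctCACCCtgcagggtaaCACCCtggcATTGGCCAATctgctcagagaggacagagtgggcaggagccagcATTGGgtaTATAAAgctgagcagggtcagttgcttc

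CACCC stood 3 times in the Alas2 window, 2 times in that of Hba-a1, 1 time in that of Hbb-bs and 3 times in that of Hbb-bt. Over 32851 promoter windows of the same length, 52.0% held it. GATA letters stood 1 time each in the windows of Alas2, Hba-a1 and Hbb-bs, and 26.5% of all windows held them. CCAAT stood in those of Hba-a1 (1), Hbb-bs (1) and Hbb-bt (3), against 33.8% of all windows, and the TATA letters searched in those of Alas2 (1) and Hbb-bt (1), against 20.9%. A match is a run of letters, not a measured binding site, and binding was not measured in these muscles.

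Alas2 was the member whose severe and control mice did not overlap. Its deposited signal, in arbitrary units after background subtraction, was 259.8, 291.1, 116.1 and 119.1 in severe mice 11, 13, 15 and 16, against 109.3, 50.4, 61.1 and 48.8 in control mice 1 to 4. Severe mice 11 and 13 stood well above the other severe pair, and control mouse 1 stood above the other controls and just below the lowest severe mouse. The means were 196.6 ± 92.0 in severe and 67.4 ± 28.4 in control mice (SD, n = 4 each). On the log2 scale, after background modelling and quantile normalization, the severe minus control difference was 1.30 (SE 0.34, 95% interval 0.57 to 2.02), or 2.46-fold, and without severe mice 11 and 13 it was 0.74 (SE 0.32). Of the 10134 genes tested, 15.0% had all 4 severe mice above all 4 controls, and since Alas2 was chosen on this contrast nothing is read from its place among them. In bulk muscle, more red cells in the sample and more Alas2 RNA per red cell cannot be told apart.

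In moderate cachexia Alas2 gave 106.3, 145.4 and 50.4 in mice 5, 9 and 12, a mean of 100.7 ± 47.8 (SD, n = 3). Mice 5 and 9 lay near or above the highest control and mouse 12 at the level of the low controls, so the groups overlapped. The moderate minus control difference was 0.45 on the log2 scale (SE 0.36, 95% interval -0.33 to 1.23), and the severe minus moderate difference was 0.85 (SE 0.36, 95% interval 0.07 to 1.63). Both depended on single mice: without moderate mouse 9 they were 0.17 and 1.13, and without moderate mouse 12 they were 0.81 and 0.49.

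Hba-a1, the alpha-globin gene, gave signals of 16478, 12298, 7040 and 6000.3 in severe mice 11, 13, 15 and 16, against 7477, 5355, 6308 and 5391 in control mice 1 to 4. Only severe mice 11 and 13 were above all controls, and mice 15 and 16 lay within the control range. The means were 10454 ± 4871 in severe and 6133 ± 999 in control mice (SD, n = 4 each), and the log2 difference was 0.66 (SE 0.29, 95% interval 0.04 to 1.29), or 1.58-fold. Without severe mice 11 and 13 it was 0.10 (SE 0.23). In moderate mice 5, 9 and 12 Hba-a1 gave 5391, 7609 and 3714, which spanned the control range on both sides, with a log2 difference from control of -0.18 (SE 0.31).

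Adult beta-globin followed the same mice. The brightest Hbb-bs probe gave 20479, 14166, 8668 and 8337 in severe mice 11, 13, 15 and 16, against 9886, 5700.2, 6986 and 6596 in control mice 1 to 4. Severe mice 15 and 16 were above 3 controls and below control mouse 1. The means were 12913 ± 5709 in severe and 7292 ± 1811 in control mice (SD, n = 4 each), a log2 difference of 0.75 (SE 0.29, 95% interval 0.13 to 1.38), or 0.25 (SE 0.26) without severe mice 11 and 13. In moderate mice 5, 9 and 12 the same probe gave 7738, 9830 and 4673, a log2 difference from control of -0.01 (SE 0.31), with mouse 9 at the level of control mouse 1 and mouse 12 below every control.

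The brightest Hbb-bt probe gave 17401, 13892, 9326 and 7477 in severe mice 11, 13, 15 and 16, against 8320.2, 6477, 6486 and 6115 in control mice 1 to 4. Here severe mouse 15 was also above all controls, and mouse 16 was below control mouse 1. The severe minus control log2 difference was 0.74 (SE 0.26, 95% interval 0.19 to 1.30), and without severe mice 11 and 13 it was 0.30 (SE 0.23). Moderate mice 5, 9 and 12 gave 7633, 9122 and 4414, a log2 difference from control of -0.01 (SE 0.28).

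**Figure D1:**
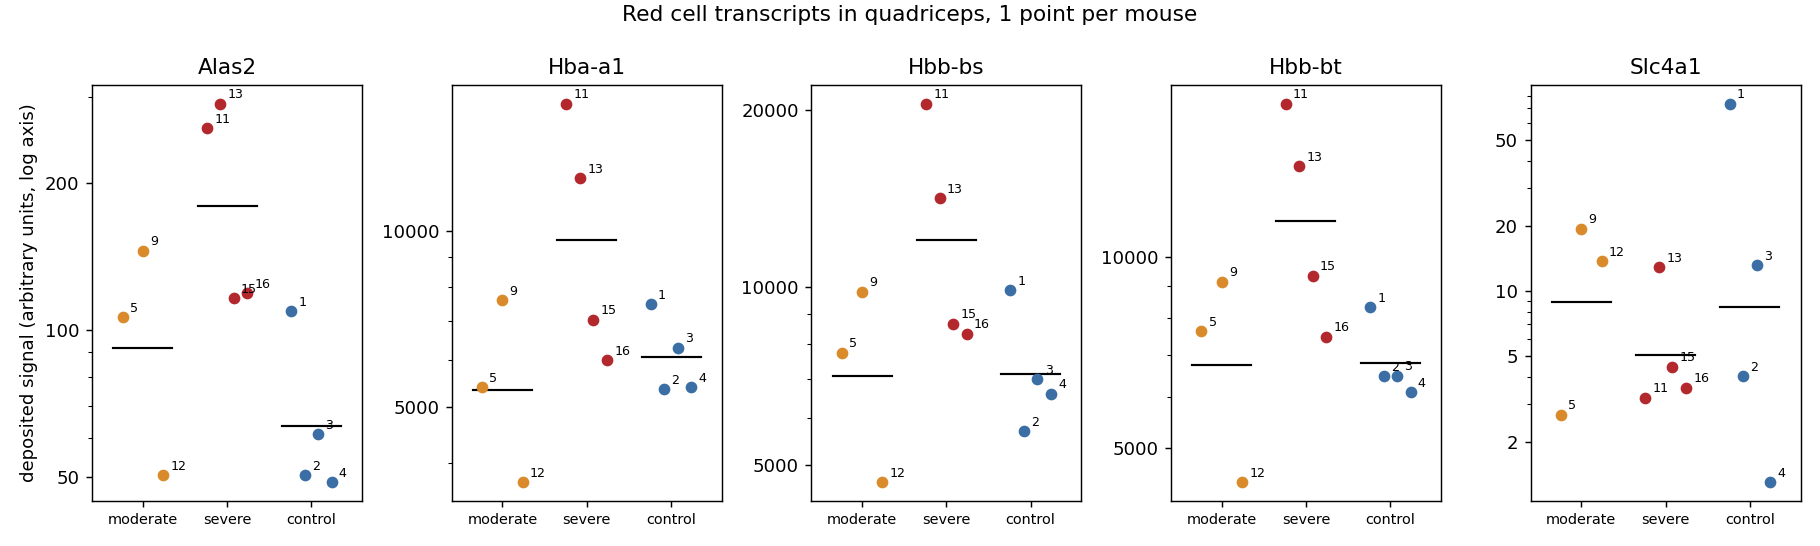
Deposited signal (arbitrary units, log axis, a separate scale in each panel) of Alas2, Hba-a1, the brightest Hbb-bs and Hbb-bt probes and Slc4a1, with 1 point per mouse marked by its number and a line at the geometric mean of moderate (n = 3), severe (n = 4) and control (n = 4) mice. In the first 4 panels severe mice 11 and 13 are the highest points, and for Alas2 all 4 severe mice lie above all controls; Slc4a1 is near background and its highest point is control mouse 1.

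The 10 beta-globin probes share their transcripts and are not replicates of each other. Their severe minus control log2 differences ran from 0.72 to 1.21 (1.65-fold to 2.31-fold), with 10 of 10 above 0, and in each of them the severe and control mice overlapped. Their moderate minus control differences ran from -0.26 to 0.09, with 4 of 10 above 0, and their severe minus moderate differences from 0.75 to 1.13. The dimmest Hbb-bt probe had severe mice at 105.8 to 301.9 and moderate mice at 69.0 to 99.6, with no overlap, a placing that 10.8% of all genes tested showed between these groups.

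Ranking the mice in each of 13 probes (Alas2, Hba-a1, the 10 beta-globin probes and the minor adult beta-globin Hbb-b2) placed severe mice 11 and 13 as the highest pair in 13 of 13. Moderate mouse 12 was lowest in 12 of 13, and control mouse 4 was lowest for Alas2. Control mouse 1 and moderate mouse 9 both ranked between 3 and 6. These placings were thus those of single mice, and the 4 severe mice divided into a high pair and a pair near the upper controls.

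As folds over the control mean, the 12 adult globin probes were at 2.56 to 4.33 in severe mouse 11 and at 1.91 to 3.46 in severe mouse 13, with severe mouse 15 at 1.12 to 1.46 and severe mouse 16 at 0.94 to 1.32. Moderate mice 5, 9 and 12 were at 0.82 to 1.18, 0.93 to 1.49 and 0.61 to 0.71, and control mouse 1 was at 1.22 to 1.76. The ranges within a mouse were narrow beside the range between mice of a group. After each group's mean was removed, the log2 values of Hba-a1, Hbb-bs and Hbb-bt correlated with each other over the 11 arrays at r = 0.962 to 0.972, and with Alas2 at 0.920 to 0.935. All of these values come from the same RNA samples and arrays, so the correlations describe these libraries.

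**Figure D2:**
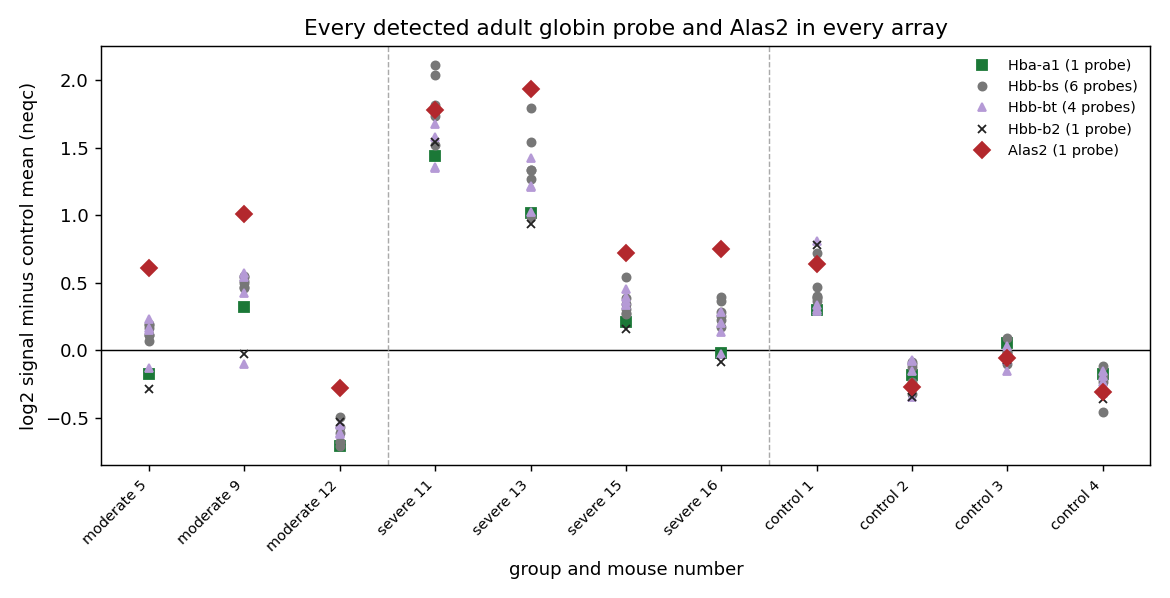
Normalized log2 signal minus the control mean (y axis) of Alas2, Hba-a1, the Hbb-bs and Hbb-bt probes and Hbb-b2 in each of the 11 arrays (x axis: moderate, severe and control mice by number), 1 point per probe. Probes of a mouse lie close together, severe mice 11 and 13 are highest, moderate mouse 12 is lowest in 12 of 13 probes, and Alas2 lies above Hba-a1 in all 7 tumor-bearing mice.

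Alas2 stood higher relative to Hba-a1 in the mice with a tumor than in the controls. The log2 level of Alas2 minus that of Hba-a1, each set to its control mean, was 0.78, 0.68 and 0.43 in moderate mice 5, 9 and 12 (mean 0.63 ± 0.18, SD, n = 3). It was 0.34, 0.92, 0.51 and 0.77 in severe mice 11, 13, 15 and 16 (mean 0.64 ± 0.26, SD, n = 4), against 0.34, -0.09, -0.11 and -0.14 in control mice 1 to 4 (SD 0.23, n = 4). Every tumor-bearing mouse was thus above every control, but severe mouse 11 and control mouse 1 were level to 2 decimals. Against the other globin probes the gap did not hold in severe mouse 11, where Alas2, at a log2 difference of 1.78 from the control mean, lay within the globin range of 1.35 to 2.11. In moderate mice, whose globin signals lay around those of controls, the mean difference was close to that of severe mice. The difference was noticed in these data, on measures that chose the members, and has no test.

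**Figure D3:**
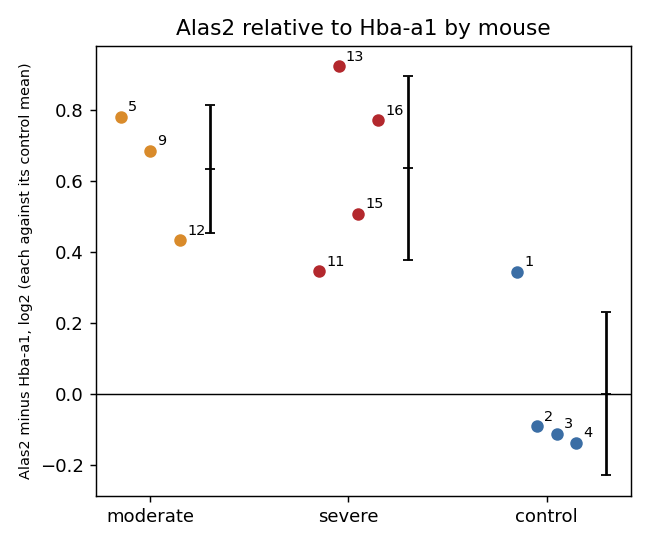
Log2 level of Alas2 minus that of Hba-a1, each relative to its control mean (y axis), with 1 point per mouse marked by its number and, beside each group, the mean and SD (n = 3 moderate, 4 severe, 4 control). The 7 tumor-bearing mice lie between 0.34 and 0.92, control mouse 1 is at 0.34 and the other controls are between -0.14 and -0.09.

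Slc4a1 did not follow the other members. Its signal was 3.21, 12.9, 4.47 and 3.57 in severe mice 11, 13, 15 and 16 and 2.68, 19.4 and 13.7 in moderate mice 5, 9 and 12, against 73.2, 4.03, 13.1 and 1.31 in control mice 1 to 4. It was detected in 2 of 3 moderate, 1 of 4 severe and 2 of 4 control mice, below the filter for a test. Severe mouse 11, with the most globin, had Slc4a1 at background, and control mouse 1 had the highest value. Most of these values cannot be told from background, so the severe minus control log2 difference of -0.50 (SE 0.36), computed without the filter, rests mainly on control mouse 1.

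Among globin genes outside the members, Hbb-b2 gave 1204, 782.3, 450.4 and 377.2 in severe mice 11, 13, 15 and 16 and 327.6, 395.4 and 274.4 in moderate mice 5, 9 and 12, against 701.4, 313.6, 381.2 and 309.3 in control mice 1 to 4. Its severe minus control log2 difference was 0.64 (SE 0.33, limma adjusted p = 0.152). The mice fell in much the same order as for the members, and the difference did not pass the test. Embryonic Hbb-y and the theta-like genes Hbq1a and Hbq1b were detected on 0 arrays, embryonic Hba-x on 1, and Hbb-bh1, the early beta-like gene, stayed between 5.57 and 21.0 in all mice with its brighter probe. Myoglobin (Mb), the oxygen store of muscle fibers, gave 16707, 8268, 19060 and 13388 in severe mice 11, 13, 15 and 16, against 23681, 22557, 22059 and 22557 in control mice 1 to 4. It fell in severe cachexia by 0.73 on the log2 scale (SE 0.19, limma adjusted p = 0.0121), with all severe mice below all controls, as for 17.3% of all genes tested.

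Other genes of red cells were counted from a joint list of 84 genes (globins outside the members, membrane and skeleton, heme synthesis, transcription factors, cytosol and maturation), of which 73 had a probe and 49 passed the detection filter. In severe cachexia 3 rose and 7 fell, against 33.3% of all 10134 genes tested that passed in either direction (15.6% higher, 17.8% lower), with a list median log2 difference of -0.10 and a median over all genes of 0.00. The count ran from 6, without control mouse 2, to 19, without severe mouse 11. In moderate cachexia 12 rose and 14 fell, against 41.1% of all genes (18.9% higher, 22.2% lower), with a median of -0.19 against -0.03, and the count fell to 11 when moderate mouse 5 was left out, to 13 when moderate mouse 12 was and to 15 when control mouse 3 was. Between severe and moderate mice 0 rose and 2 fell (Foxo3 and Mkrn1), against 6.98% of all genes (3.17% higher, 3.81% lower), and this count ran from 0 to 4 when single mice were left out. Over all genes, too, more fell than rose in each comparison, and without control mouse 3 the list had 8 rises and 7 falls in moderate cachexia. Many of its genes are also used by muscle or other cells.

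Many genes particular to erythroblasts were not detected. The transcription factor genes Gata1, Gfi1b, Nfe2 and Bcl11a were detected on 0 arrays, and so were the membrane genes Epb42, Rhd, Kel and Ermap and the carbonic anhydrase Car1. Klf1, the globin activator, was detected in 3 of 3 moderate, 3 of 4 severe and 3 of 4 control mice at low signals, 11.5 to 20.2 in severe and 10.6 to 16.9 in control mice, with a severe minus control log2 difference of 0.10 (SE 0.12, limma adjusted p = 0.567). Hemgn, a nuclear protein of erythroblasts, was detected on all 11 arrays at 12.9 to 37.7, with a severe minus control log2 difference of 0.03 (SE 0.16, limma adjusted p = 0.91). The 12 markers of proliferating cells, of which 10 had a probe, had 0 members past the detection filter.

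Of the heme synthesis genes, 12 of 16 were tested, and in severe cachexia 1 rose and 1 fell (33.3% of all genes passed in either direction). Alas1, the form of the Alas2 enzyme that other tissues use, fell by 0.67 on the log2 scale in severe (SE 0.13, limma adjusted p = 0.00278) and fell by 0.66 in moderate cachexia (SE 0.14, limma adjusted p = 0.00353). Its signals were 4744, 3164, 4193 and 4461 in severe mice 11, 13, 15 and 16 and 3836, 4638 and 3962 in moderate mice 5, 9 and 12, against 6908, 5547, 6916 and 6916 in control mice 1 to 4. Both stages lay below every control, as did 17.3% of all genes in severe and 25.0% in moderate cachexia, while Alas2 lay above every control in severe mice. Slc25a38, the mitochondrial glycine carrier that feeds the enzyme, rose by 0.88 in moderate (SE 0.25, limma adjusted p = 0.0151) and by 0.70 in severe cachexia (SE 0.23, limma adjusted p = 0.0341). In severe cachexia its call was lost without any 1 of control mice 1, 2 and 4 and severe mice 13, 15 and 16 (adjusted p up to 0.104), and in moderate cachexia without mouse 5 or mouse 12 (adjusted p up to 0.0608). In moderate cachexia the heme list had 1 rise and 4 falls, the falls being Alas1, the iron carrier Slc25a37 (limma adjusted p = 0.0228), Slc25a39 (0.0172) and Tmem14c (0.0308). Slc25a37 was lost without any 1 of control mice 1 and 2 and moderate mouse 12 (adjusted p up to 0.115), Slc25a39 without control mouse 3 or moderate mouse 12 (up to 0.0905) and Tmem14c without any 1 of control mice 1 and 3 and moderate mice 5 and 9 (up to 0.143). Ferrochelatase (Fech), which inserts iron into heme, gave -0.18 in severe (SE 0.13, limma adjusted p = 0.301).

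Of 20 membrane and skeleton genes, 9 were tested, and in severe cachexia Xk rose while Ank1 and Tmod1 fell, 3 of 9 beside 33.3% of all genes. Ank1, ankyrin of the red cell skeleton, also encodes a small ankyrin of the muscle sarcoplasmic reticulum. It fell by 1.95 in severe cachexia on the log2 scale (SE 0.34, limma adjusted p = 0.00134) and fell by 2.88 in moderate (SE 0.37, limma adjusted p = 0.000138). Its signals were 1092, 292.2, 650.9 and 386.2 in severe mice 11, 13, 15 and 16 and 190.1, 453.4 and 230.6 in moderate mice 5, 9 and 12, against 1786 to 2277 in control mice. Tmod1, which caps actin filaments in red cells and muscle, fell by 0.83 in severe cachexia (SE 0.21, limma adjusted p = 0.0102). Xk, a membrane protein of red cells and muscle, rose by 0.75 in severe cachexia (SE 0.23, limma adjusted p = 0.0234), a call lost without any 1 of control mice 2 and 4 and severe mice 13 and 16 (adjusted p up to 0.0697). In moderate cachexia 3 of the 9 rose and 4 fell, beside 18.9% and 22.2% of all genes.

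Of 24 cytosol and maturation genes, 15 were tested. In severe cachexia Nprl3 rose and Prdx2, Car2 and Bpgm fell, and in moderate cachexia 4 rose and 5 fell. All genes passed at 33.3% in severe and 41.1% in moderate cachexia. Prdx2, a peroxidase that is among the main proteins of red cells and is also made in muscle, fell by 0.65 in severe cachexia (SE 0.10, limma adjusted p = 0.00066), with 2301 to 2646 in severe mice against 3711 to 4359 in control mice. Bpgm, which makes the phosphate that lowers the oxygen affinity of hemoglobin, fell by 0.93 in moderate cachexia (SE 0.16, limma adjusted p = 0.000904), with 11.8, 23.0 and 15.1 in moderate mice 5, 9 and 12 (detected in 2 of 3) against 37.1 to 58.8 in control mice. In severe cachexia its fall of 0.42 (limma adjusted p = 0.0417) was lost without any 1 of 6 mice (control 1 and 2, moderate 12, severe 13, 15 and 16; adjusted p up to 0.115). Nprl3, which holds the alpha-globin enhancers in its introns and encodes an inhibitor of mTORC1 signalling, rose by 0.56 in severe cachexia (SE 0.13, limma adjusted p = 0.00624), and Car2, the carbonic anhydrase of red cells, fell by 0.43 (SE 0.12, limma adjusted p = 0.0123).

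Of 16 erythroid transcription factors, 11 were tested. Lmo2, a bridging factor of the GATA1 complex that endothelium also makes, fell by 0.62 in moderate cachexia (SE 0.15, limma adjusted p = 0.00566) and fell by 0.40 in severe (SE 0.14, limma adjusted p = 0.0369), where the call was lost without any 1 of control mice 1, 2 and 3 and severe mice 13, 15 and 16 (adjusted p up to 0.112). It was the 1 factor of the 11 that passed in severe cachexia, beside 33.3% of all genes. Moderate cachexia gave 4 rises and 1 fall among the 11, beside 18.9% and 22.2% of all genes. In moderate cachexia Foxo3, Ldb1, Zbtb7a and Tal1 rose, of which Ldb1 was lost without moderate mouse 5 (limma adjusted p = 0.0762), Zbtb7a without any 1 of control mice 1 and 2 and moderate mice 5 and 12 (up to 0.0943) and Tal1 without any 1 of the controls, moderate mice 5 and 12 and severe mouse 16 (up to 0.195). Tal1 was detected in 2 of 3 moderate and 2 of 4 control mice. Foxo3, a forkhead factor of both erythroblasts and wasting muscle, rose by 1.30 (SE 0.24, limma adjusted p = 0.00136), with 36.8, 35.7 and 89.4 in moderate mice 5, 9 and 12 against 7.58 to 14.3 in control mice. It was detected in 3 of 3 moderate and 1 of 4 control mice and passed the filter only through the moderate group. With no filter its adjusted p was 0.00286, while that of Tal1 was 0.0578.

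Of 18 genes of erythropoietin and iron supply to red cells, 13 were tested. In severe cachexia 1 rose and 3 fell and in moderate cachexia 2 rose and 4 fell, shares near those over all genes (33.3% in severe and 41.1% in moderate cachexia). Erfe encodes erythroferrone, a hormone by which erythroblasts lower liver hepcidin and which muscle also makes. It gave 48.8 to 96.2 in moderate and 33.6 to 53.5 in severe mice and was not well above background in any control mouse. The bound, taken against the lowest signal detected on each control array, was at least 2.89-fold for moderate (limma adjusted p = 3.93e-05) and at least 2.07-fold for severe mice (limma adjusted p = 0.000302). Erfe passed the filter only through the groups where it was high, and with no filter the adjusted p-values were 0.000136 and 0.000911. In severe mice its level did not follow the globins, with 33.6 in mouse 11 and 53.5 in mouse 16.

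Tfrc, the transferrin receptor that brings iron into cells, fell by 2.92 in moderate (SE 0.30, limma adjusted p = 3.48e-05) and fell by 1.63 in severe cachexia (SE 0.28, limma adjusted p = 0.00115). Its signals were 83.2, 137.6 and 109.3 in moderate mice 5, 9 and 12 and 583.6, 202.9, 209.5 and 267.2 in severe mice 11, 13, 15 and 16, against 697 to 1070.2 in control mice. Neither stage overlapped the controls, and severe mouse 11 was the nearest to them. Of all genes tested, 25.0% lay below every control in moderate and 17.3% in severe cachexia. The endosomal iron exporter Slc11a2 fell by 0.95 in moderate (SE 0.17, limma adjusted p = 0.00105) and fell by 0.64 in severe cachexia (SE 0.16, limma adjusted p = 0.00763), and the ferrireductase Steap3 fell by 0.75 in moderate (limma adjusted p = 0.0266) and fell by 0.71 in severe (limma adjusted p = 0.0279). The Steap3 call was lost in moderate cachexia without mouse 5 or 12 (adjusted p up to 0.111) and in severe without any 1 of control mouse 2 and severe mice 13, 15 and 16 (adjusted p up to 0.0836). Stat5a, a mediator of erythropoietin signalling, fell by 0.47 in moderate cachexia (limma adjusted p = 0.019; up to 0.0629 without mouse 5 or 12). Slc40a1, ferroportin, rose in moderate cachexia by 0.85 (SE 0.22, limma adjusted p = 0.00852) and gave -0.46 in severe (SE 0.20, limma adjusted p = 0.0996). Epo, encoding erythropoietin, was detected on 0 arrays, and its receptor Epor on 2.

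Of 11 genes that clear hemoglobin and heme, 10 were tested. In severe cachexia 4 rose and 1 fell, beside 15.6% of all genes that rose, and in moderate cachexia 6 rose and 0 fell, beside 18.9%. The list median was 0.56 in severe against 0.00 over all genes, and 0.68 in moderate against -0.03. Hp, haptoglobin, which binds free hemoglobin in plasma and is also an acute phase protein, rose by 2.70 in severe (SE 0.58, limma adjusted p = 0.00427) and by 2.27 in moderate cachexia (SE 0.63, limma adjusted p = 0.012; 0.0712 without moderate mouse 5). Its signals were 7951, 1593, 1737 and 4359 in severe mice 11, 13, 15 and 16, against 243.4, 1014, 849.3 and 224.2 in control mice 1 to 4. All severe mice were above all controls, as for 15.0% of all genes tested. The controls themselves fell into a low and a high pair that was not the order of their globins.

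Cd163, the macrophage receptor for the haptoglobin and hemoglobin complex, rose by 1.60 in moderate (SE 0.24, limma adjusted p = 0.000422) and by 1.43 in severe cachexia (SE 0.22, limma adjusted p = 0.00068). It gave 817.8, 582.9 and 866.2 in moderate mice 5, 9 and 12 and 1094, 423.4, 632.6 and 644 in severe mice 11, 13, 15 and 16, against 223.8 to 247 in control mice. Moderate mice lay above every control for 22.8% of all genes. Hmox1, heme oxygenase, which opens the heme ring, rose by 1.65 in severe (SE 0.38, limma adjusted p = 0.00566) and by 1.58 in moderate cachexia (SE 0.41, limma adjusted p = 0.00825; 0.0507 without moderate mouse 5). Its severe signals were 77.6, 61.9, 190.4 and 174.1 in mice 11, 13, 15 and 16, against 17.5 to 34.96 in control mice, so that the pair with the most globin had the least Hmox1 of the severe mice. Ftl1, the ferritin light chain, rose by 0.85 in severe (SE 0.16, limma adjusted p = 0.00223) and by 0.82 in moderate cachexia (SE 0.18, limma adjusted p = 0.00329). Hpx, hemopexin, the plasma carrier of heme, was not well above background in any control mouse. Against the lowest signal detected on each control array, moderate mice were higher by at least 3.82-fold (limma adjusted p = 0.00386; 0.00758 with no filter, since it passed only through that group). In severe mice it was detected in 2 of 4 (limma adjusted p = 0.17). The 1 gene that fell was Blvra, biliverdin reductase, by 0.52 in severe cachexia (limma adjusted p = 0.0495), a call lost without any 1 control mouse, moderate mouse 12 or severe mice 13 or 16 (up to 0.149).

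**Figure D4:**
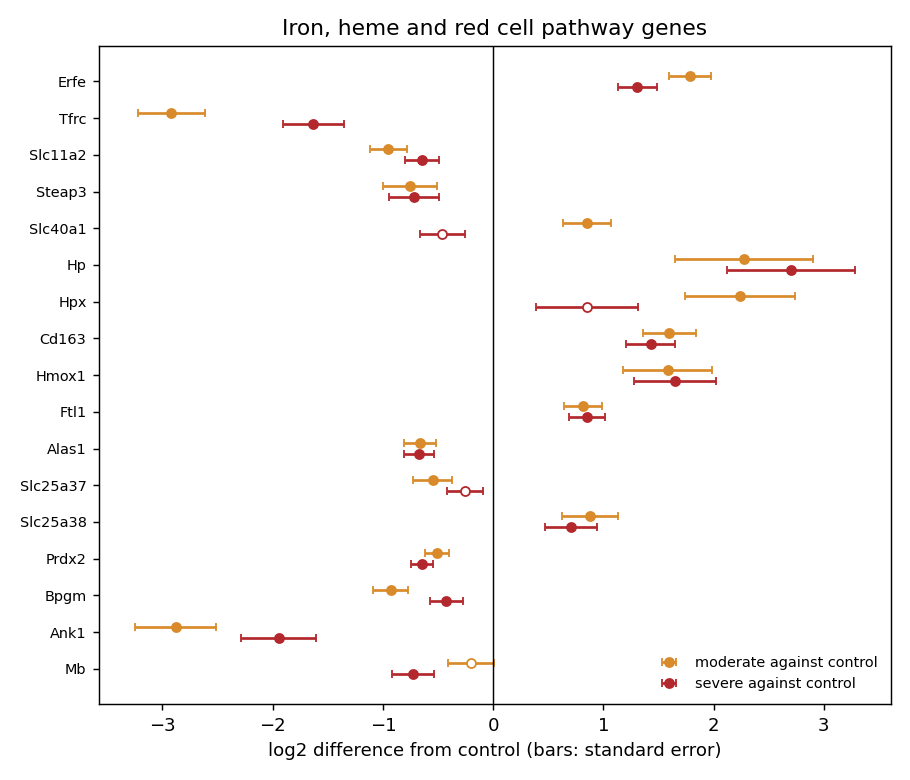
Log2 difference from control (x axis) of 17 genes of iron supply, heme, hemoglobin clearance and red cells (y axis) in moderate (upper point of each row) and severe cachexia (lower point), with bars of 1 standard error. Filled points passed a limma adjusted p of 0.05 and open points did not; Tfrc and Ank1 lie farthest to the left and Hp farthest to the right.

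Of other blood cells, platelet markers moved with some of the same mice, and neutrophil markers did so only in part. Of 16 platelet and megakaryocyte markers, 14 had a probe and 6 were tested. Their summed signal was 1961, 1127, 837.2 and 723.4 in severe mice 11, 13, 15 and 16 and 662.8 to 720.6 in moderate mice, against 595.7 to 848.8 in control mice, so the severe pair with the most globin was also the pair above all controls here. Pf4 made up most of this sum, with 1728 and 771.6 in severe mice 11 and 13 against 525.1 to 708.9 in control mice. Ppbp, Tubb1 and Gp9 were also above all controls in both mice. Itgb3 was so only in mouse 11, and Alox12 lay within the control range in both. Ppbp, a platelet chemokine, rose by 1.59 in severe cachexia (SE 0.41, limma adjusted p = 0.0103; 0.0792 without severe mice 11 and 13) and Tubb1, the platelet tubulin, by 1.16 (SE 0.24, limma adjusted p = 0.00376; 0.0142 without them), each detected in 1 of 4 control mice. These were 2 of the 6 tested, beside 15.6% of all genes that rose. Both passed the filter only through the severe group, and with no filter their adjusted p-values were 0.0208 for Ppbp and 0.00645 for Tubb1. In moderate cachexia 1 of the 6 rose (Itgb3, limma adjusted p = 0.00924) and 1 fell (Alox12, limma adjusted p = 0.0116), beside 18.9% and 22.2% of all genes. Each call was lost without moderate mouse 5 (adjusted p of 0.0516 and 0.055). Itgb3 was detected in 1 of 4 control mice and passed the filter only through the moderate group (adjusted p of 0.0144 with no filter). The defining markers Gp1bb and Gp6 were detected on 0 arrays and Gp5 on 2.

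Neutrophil markers (5 of 13 tested) summed to 535.2 to 1463 in severe, 264.9 to 700.2 in moderate and 176.9 to 1170.0 in control mice. Control mouse 1, the control with the most Alas2 and globin, held the 1170.0, and the other controls were at 176.9 to 180.6. Severe mouse 11, with the most globin, held the highest severe sum. Other mice did not follow the globins: moderate mouse 12, with the least globin, had 700.2 and moderate mouse 9 had 264.9. Severe mouse 16 had 1089, against 736.1 in severe mouse 13. In severe cachexia 2 of the 5 rose, beside 15.6% of all genes. S100a8 rose by 1.68 (SE 0.59, limma adjusted p = 0.0435) and Retnlg, detected in 1 of 4 control mice, by 1.50 (SE 0.30, limma adjusted p = 0.00265). Retnlg passed the filter only through the severe group, and with no filter its adjusted p was 0.00557. The S100a8 call was lost without any 1 of control mice 2, 3 and 4, moderate mouse 5 and severe mice 11, 13 and 16 (adjusted p up to 0.122). The defining markers Elane, Mpo, Mmp8 and Cxcr2 were detected on 0 arrays.

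Macrophage markers (8 of 12 tested) summed to 2968 to 6235 in severe, 2990 to 3820 in moderate and 1875 to 2273 in control mice, with the 6235 in severe mouse 11 and the other severe mice at 2968 to 3085. Itgam was detected on 0 arrays. In all, 4 of the 8 rose in severe cachexia (Cd163, Ctss, Lyz2 and Mrc1) and 3 in moderate (Cd163, Mrc1 and Cd14), beside 15.6% and 18.9% of all genes. Apart from Cd163 each of these calls was lost when single mice were left out. In severe cachexia Ctss was lost without control mouse 4 (limma adjusted p = 0.0718), Lyz2 without control mouse 2 or 4 (up to 0.0689) and Mrc1 without any 1 of control mice 1, 3 and 4 and severe mice 11 and 15 (up to 0.0953). In moderate cachexia Mrc1 was lost without any 1 of control mice 1, 3 and 4 and moderate mice 5 and 12 (up to 0.0926), and Cd14 without any 1 of the controls, moderate mice 5 and 12 and severe mouse 16 (up to 0.179). Endothelial markers (11 of 12 tested) were taken as a sign of vessel. They summed to 6714 to 7464 in severe, 7487 to 7532 in moderate and 5949 to 6564 in control mice. By this sum, to which the brightest genes add most, every tumor-bearing mouse was above every control. Severe mice 11 and 13 were not set apart from the other severe mice. By the median log2 difference from the control mean over these 11 genes the groups overlapped. Control mouse 2 was at 0.16, moderate mouse 5 at 0.08 and severe mouse 11 at 0.14, so more vessel in tumor-bearing mice is not shown. Of the 11, Vwf rose in severe cachexia (limma adjusted p = 0.0129). In moderate cachexia Esam (limma adjusted p = 0.00148), Vwf (0.00931) and Pecam1 (0.0427; up to 0.119 with 1 mouse left out) rose. In each stage 0 fell, and 15.6% of all genes rose in severe and 18.9% in moderate cachexia. Markers of B and T lymphocytes (8 of 12 with a probe) had 0 members past the detection filter. The part of blood volume or of other blood cells in the globin and Alas2 differences was not tested.

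The genes whose levels varied most like the members from mouse to mouse were found by correlating each gene with the mean of Alas2, Hba-a1 and the beta-globin pair over the 11 arrays, after each group's mean was removed. Of 10130 genes compared, 4 had r above 0.9. These were Nrxn3 (0.952), a synaptic adhesion gene, Rtkn2 (0.928), Hbb-b2 (0.908), and Fam217b (0.903). The next were Psmc3ip (0.887), Dlc1 (0.876), Ube2l6 (0.867), Sqor (0.864), Srr (0.862) and Laptm4b (0.855). The signals of Nrxn3, first in this order, were low, from 6.22 to 23.96 over all mice. At the opposite end r was about as large, -0.908 for Lrrc52 and -0.899 for Tmem52. With 10130 genes ordered over 11 arrays, these r values have no test and tie no gene to red cells. Ube2l6, a ubiquitin-conjugating enzyme on the red cell list, gave 58.9, 38.5, 11.6 and 18.8 in severe mice 11, 13, 15 and 16, against 23.4 to 28.5 in control mice.

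Rtkn2 gave 37.6, 31.8, 26.0 and 16.6 in severe mice 11, 13, 15 and 16 and 20.1, 23.4 and 6.06 in moderate mice 5, 9 and 12, against 29.8, 15.2, 20.6 and 15.98 in control mice 1 to 4. Like the globins it was highest in severe mice 11 and 13 and lowest in moderate mouse 12. Without the 2 arrays farthest from the median of the member mean (severe mouse 11 and moderate mouse 12), r was 0.902 for Rtkn2, 0.939 for Nrxn3 and 0.935 for Hbb-b2. By rank correlation 8 of these 10 genes were again among the first 10. Over plain log2 values, with the group means left in, r was 0.913 for Hbb-b2, 0.899 for Rtkn2 and 0.443 for Nrxn3.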

How the data were processed

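Quadriceps RNA of 11 mice was measured on 1 Illumina array each. The intensity table deposited by the authors came from BeadStudio and GeneSpring GX per the methods. Its columns held the same sorted values to within 0.319 and 28.5% of them were negative, which are the marks of quantile normalization and background subtraction. The authors also deposited a detection p-value beside every intensity, and a ratio table in which intensities floored at 1 were divided by the control median.

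Intensities went through neqc of limma 3.58.1 (R 4.3.3; offset 16, log2). Only probes detected at p under 0.01 throughout some group stayed in (18837 of 45281), and each of 10134 genes was read from its brightest named probe. Symbols were single for 34885 probes, several for 18 and absent for 10378. The fit (lmFit, eBayes with trend; 3 group means) used all mice, with calls at a Benjamini-Hochberg adjusted p under 0.05, and was tested on simulated data. Promoters came from RefSeq (4 of 5 matched; Slc4a1 was not). Figures used matplotlib 3.10.9. Members and lists were chosen with earlier results of these data known. Named genes were the members, up to 4 genes a list by smallest adjusted p, list genes behind counts of 5 or fewer, and the 10 most like the members; a selection is given.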

Additional observations from a re-analysis of the deposited data

Results flagged for a closer look

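In groups of 4 mice, 3 values stood apart by Dixon's ratio (the gap to the nearest mouse over the group's range, beyond its 95% critical value for 4 samples, on normalized log2 values), which chance gives in about 1 in 20 groups. The ratio was taken in the control and in the severe mice for each of the 13 member probes, Hbb-b2 and the brighter Hbb-bh1 probe, so some such values arise by chance. Beta-globin probes share their transcripts, so their ratios are not independent. Control mouse 1 stood above the other controls in 1 Hbb-bs probe (ratio 0.853; 8790 against 5850 to 6212) and in the dimmest Hbb-bt probe (ratio 0.832; 202.2 against 81.7 to 95.8). Severe mouse 13 stood above the other severe mice in Slc4a1 (ratio 0.891; 12.9 against 3.21 to 4.47), near background. On the deposited signals these 3 ratios were 0.877, 0.882 and 0.870, and control mouse 1 then also stood apart in the brightest Hbb-bt probe (0.831) and in Slc4a1 (0.836).

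In 7 list genes the severe and moderate mice differed by limma's test of that contrast, beside 6.98% of all genes tested. The red cell list gave 2 of its 49 tested genes, platelets 2 of 6 and endothelium 1 of 11. The 13 genes of iron supply gave 1 rise and 1 fall, and the other lists gave 0. Slc40a1 was lower in severe than in moderate mice by a log2 difference of -1.31 (SE 0.22, limma adjusted p = 0.00548), and Tfrc was higher by 1.29 (SE 0.30, limma adjusted p = 0.0237; up to 0.116 without moderate mouse 5, moderate mouse 12 or severe mouse 16). The platelet gene Alox12 was higher by 1.08 (limma adjusted p = 0.0208; up to 0.0941 without moderate mouse 5, moderate mouse 9 or severe mouse 16). Against controls Alox12 gave -0.88 in moderate mice (limma adjusted p = 0.0116) and 0.19 in severe mice, so the contrast came mainly from the moderate mice. Tubb1 was higher in severe than in moderate mice by 0.94 (limma adjusted p = 0.0473), a call lost without any 1 of 10 of the 11 mice, all but severe mouse 15 (adjusted p up to 0.119). Tubb1 was not well above background in any moderate mouse, and the bound was at least 1.64-fold. With no detection filter Tubb1 (adjusted p = 0.0815) and Foxo3 (0.0741) did not pass. Foxo3 gave -0.92 (limma adjusted p = 0.0384; up to 0.116), Mkrn1 -0.46 (limma adjusted p = 0.0434; up to 0.139) and Eng 0.56 (limma adjusted p = 0.0449; up to 0.150), each lost without any 1 of 8 of the 11 mice. For Foxo3 these were control mice 1, 3 and 4, moderate mice 5 and 12 and severe mice 11, 15 and 16. For Mkrn1 they were control mice 1, 3 and 4, moderate mice 5 and 12 and severe mice 13, 15 and 16, and for Eng control mice 1 and 3, moderate mice 5, 9 and 12 and severe mice 13, 15 and 16.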

How the results depend on the processing

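The 12 log2 differences of the members moved by less than the spread between mice in 258 of 260 comparisons with another setting, and 6 of the 260 changed sign, all of them moderate minus control differences of globins near 0. That spread, a within-group SD of 0.45 to 0.58, was near the size of many of the differences. The 258 is thus a weak measure of stability. The 2 that moved further were Hba-a1 without severe mice 11 and 13 (a choice made after seeing the data), at 0.10 for severe minus control and 0.28 for severe minus moderate. Leaving out 1 mouse gave severe minus control differences of 1.08 to 1.51 for Alas2, 0.40 to 0.89 for Hba-a1, 0.50 to 0.93 for Hbb-bs and 0.54 to 0.95 for Hbb-bt. Moderate minus control differences were 0.17 to 0.81 for Alas2, -0.44 to 0.08 for Hba-a1, -0.25 to 0.29 for Hbb-bs and -0.23 to 0.29 for Hbb-bt.

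Counts of red cell list genes past the threshold were, in severe against control (10), 6 with no detection filter, 1 by the methods' t-test with a fold of at least 2, and 6 to 19 with 1 mouse left out. In moderate against control (26) they were 16 with no detection filter, 2 by the methods' t-test with that fold, 14 by the methods' t-test after Benjamini-Hochberg, and 11 to 26 with 1 mouse left out. In severe against moderate (2) they were 1 with no background correction, with detection required on all arrays or with the mean of a gene's probes, 0 with no detection filter, with only the arrays compared, without severe mice 11 and 13 or by either t-test count, and 0 to 4 with 1 mouse left out. Over all genes, severe against moderate (707) gave 409 with no detection filter, 208 with only the arrays compared, 290 without severe mice 11 and 13, 146 and 7 by the methods' t-test with the fold and after Benjamini-Hochberg, and 195 to 715 with 1 mouse left out. Severe against control (3376) gave 660 and moderate against control (4162) gave 954 by the methods' t-test with the fold, and 2284 to 4094 and 2582 to 4577 with 1 mouse left out. The cause of these shifts was not tested.

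Replicate numbers in the labels could be used as a block only on the deposited ratios. The 10 same-numbered pairs correlated at -0.348 to 0.126, 1 of them over 0.1. These values gave no sign that the numbers pair the mice, but they cannot exclude it. With the replicate block severe against moderate gave 249 genes and 0 of the red cell list, against 642 and 2 on the same ratios without it, and Alas2 was at 1.50 for severe minus control both with it (SE 0.30) and without it (SE 0.41).

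With 3 or 4 arrays a group, the number of arrays limits the precision, and Slc4a1, Klf1 and the embryonic globins lay at or near background, where a difference was not detectable.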
